A study of Myotis pilosus with 4 samples.

Results

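miR-378-3p, a microRNA (miRNA) linked to energy metabolism, was followed through the small RNA of the brain and of the white adipose tissue (WAT) of the bat Myotis ricketti, which the repository lists as Myotis pilosus. It is 1 of the 119 conserved miRNAs that the study listed for this bat beside 77 bat-specific ones. Its listed sequence was looked up among all distinct tags (each different read sequence with its read count) of 4 libraries, and every tag that contained bases 3 to 17 of that sequence without a mismatch was counted as a form of it. Over the 4 libraries, 2159 distinct forms held 1003464 reads, of which 198036 were the exact 22 nt sequence. Single libraries held 319 to 1619 forms among 411552 to 1160810 distinct tags of any kind.

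HB was the brain of hibernating bats, AB the brain of active bats, HA the WAT of hibernating bats and AA the WAT of active bats. The bats were wild-caught and carried no treatment. Hibernating bats were sampled in deep torpor in March and active bats in October, so state and season cannot be told apart. Whole brain and intra-abdominal WAT were used, and each library was made from the pooled RNA of 3 bats, so that a condition had 1 library and no difference below has a replicate check. By the study's account, brain and WAT of a state came from the same bats, so the tissues are not separate groups of animals. Intervals given here are exact 95% intervals that cover counting error only. In bulk tissue, fewer cells that make a miRNA and less of it per cell cannot be told apart. The libraries held 10007650 to 12159756 clean reads of 18 to 30 nt.

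miR-378 is made from a hairpin that lies, in mammals, within the gene for PGC-1β, a coactivator of genes for mitochondrial respiration, and its 3p strand is the one usually loaded into Argonaute. It is known from adipocytes, brown fat and skeletal muscle, where it has been tied to lipid storage, mitochondrial energy use and muscle maintenance. A miRNA recognises its targets mainly through its seed, bases 2 to 8. Mature miRNAs occur as isomiRs, which differ in where the ends are cut and in bases added at the 3′ end, most often adenosine or uridine. A change of the 5′ end moves the seed, whereas a change of the 3′ end does not.

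The listed miR-378-3p is shown first with its seed in capitals. No other listed miRNA had this seed.
miR-378-3p: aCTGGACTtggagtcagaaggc

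The next sequences are the most abundant forms that start at base 1, chosen because the differences between libraries lay in their 3′ ends. Capitals mark everything from base 18 on, so that the end can be read. They are written in DNA letters, as sequenced.
21 nt, to base 21: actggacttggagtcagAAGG
22 nt, exact: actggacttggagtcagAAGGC
20 nt, to base 20: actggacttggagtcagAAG
23 nt, to base 22 with 1 adenosine added: actggacttggagtcagAAGGCA
22 nt, to base 21 with 1 adenosine added: actggacttggagtcagAAGGA
21 nt, to base 20 with 1 adenosine added: actggacttggagtcagAAGA
24 nt, to base 22 with adenosine and uridine added: actggacttggagtcagAAGGCAT
23 nt, to base 22 with 1 uridine added: actggacttggagtcagAAGGCT

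The most abundant forms that start 1 base later carry another seed, again in capitals.
22 nt, from base 2, to base 22 with 1 uridine added: cTGGACTTggagtcagaaggct
22 nt, from base 2, to base 22 with 1 adenosine added: cTGGACTTggagtcagaaggca

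miR-378-3p was far higher in WAT than in brain, and lower in the hibernating than in the active library of both tissues. The exact tag had 1459 reads in HB against 4624 in AB, and 11775 in HA against 180178 in AA. In RPM (reads in a library scaled to 1000000 clean reads) this was 120.0, 462, 1020 and 15753. Both brain libraries lay below both WAT libraries, and AA stood far above the other 3.

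All forms together had 15030 reads in HB against 21183 in AB, and 79495 in HA against 887756 in AA, or 1236, 2117, 6887 and 77619 RPM. The order of the libraries was that of the exact tag, but the gap between the brain libraries was smaller. By all forms miR-378-3p took ranks 23 and 17 among the listed miRNAs in HB and AB, and ranks 9 and 3 in HA and AA. It made up 14.1% of the reads of all listed miRNAs and their forms in AA and 1.93% in HA.

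**Figure D1:**
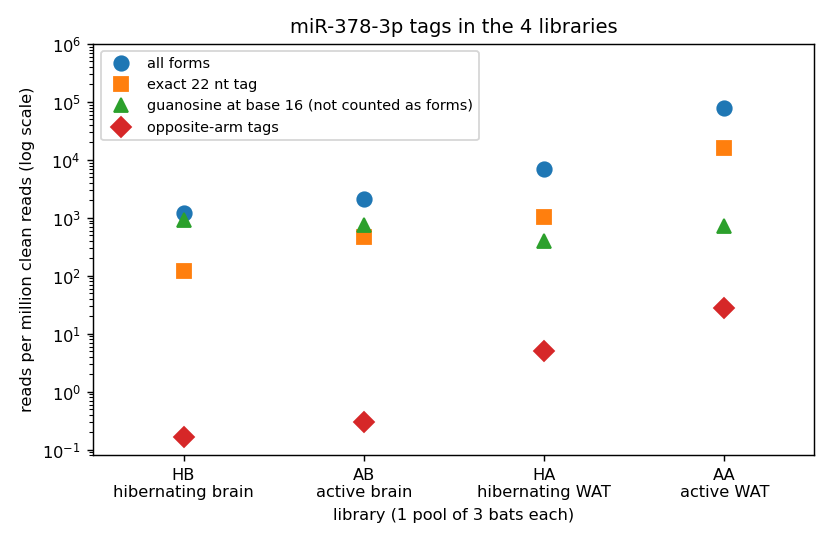
RPM, scaled to clean reads (log scale), in each of the 4 libraries, 1 point per library, for all forms of miR-378-3p, its exact 22 nt tag, tags with guanosine at base 16, and tags of the opposite arm of the hairpin. All forms span 1236 in HB to 77619 in AA, whereas the tags with guanosine at base 16 stay between 400.3 and 922.

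After scaling by TMM (trimmed mean of M-values, which sets the scale so that most miRNAs do not differ), the exact tag was 12.1-fold lower in HA than in AA, a log2 ratio of -3.60 (-3.63 to -3.57). The interval leaves out the choice of scaling, and TMM over the conserved miRNAs alone gave -2.82. A log2 ratio of -1 or below, the size used here for calling a listed miRNA lower, was met in WAT by 28.9% of the 142 listed miRNAs with enough reads, and miR-378-3p had the second lowest ratio. All forms together gave -3.44 (-3.45 to -3.43), again the second lowest, of 148 miRNAs of which 26.4% were called lower. Tags that end on listed bases gave -4.30.

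In brain the size of the difference depended on what was counted. The exact tag was 3.15-fold lower in HB than in AB, a log2 ratio of -1.66 (-1.74 to -1.57), with rank 14 from the lowest of 153 miRNAs and 17.6% called lower. All forms together were 1.73-fold lower, a log2 ratio of -0.79 (-0.82 to -0.76), which misses the size of 1, with rank 34 of 165 and 14.5% called lower. Tags that end on listed bases gave -1.26, beyond that size. The exact tag thus gave a brain difference that all reads of the miRNA gave only in part.

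The state difference was larger in WAT than in brain by 1.94 on the log2 scale for the exact tag (interval of WAT minus brain -2.03 to -1.86) and by 2.65 for all forms (-2.68 to -2.62). These intervals leave out the choice of scaling. With TMM over the conserved miRNAs the exact tag gave -2.82 in WAT and -1.52 in brain, which lie closer together. Of the 130 miRNAs with a ratio in both tissues, 13 were called lower in both by their exact tags, or 10%, and miR-378-3p was one of them. Between tissues the exact tag was 36.4-fold higher in AA than in AB, where 36.5% of miRNAs were called higher in WAT. It was 9.08-fold higher in HA than in HB, a log2 ratio of 3.18, where 35.2% were. Tags that begin with the first 18 nt gave 2.53 there.

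The exact sequence was a minority of the forms everywhere. It held 9.71% of the reads in HB against 21.8% in AB, and 14.8% in HA against 20.3% in AA. Both hibernating libraries lay below both active ones. Among tags that end on listed bases alone, however, the exact share was 37.7% in HA, above the 28.6% in AA. The 21 nt form that ends at base 21 had more reads than the exact tag in HB, AB and AA, with 2947, 6097 and 347139 reads, and slightly fewer in HA, with 11064.

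Forms cut short without added bases held 30.5% in HB against 35.1% in AB, and 22.8% in HA against 48.6% in AA. Forms extended past base 22 held 31.8%, 22.4%, 25.2% and 12.7%. Forms that were shorter but ended in other bases held 20.7%, 13.9%, 26.9% and 12.5%. In each tissue the shortened share was lower in the hibernating library, and both kinds of form with added bases had a higher share there. The forms that contain the core but differ in the first bases held 0.657% to 1.79%.

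**Figure D2:**
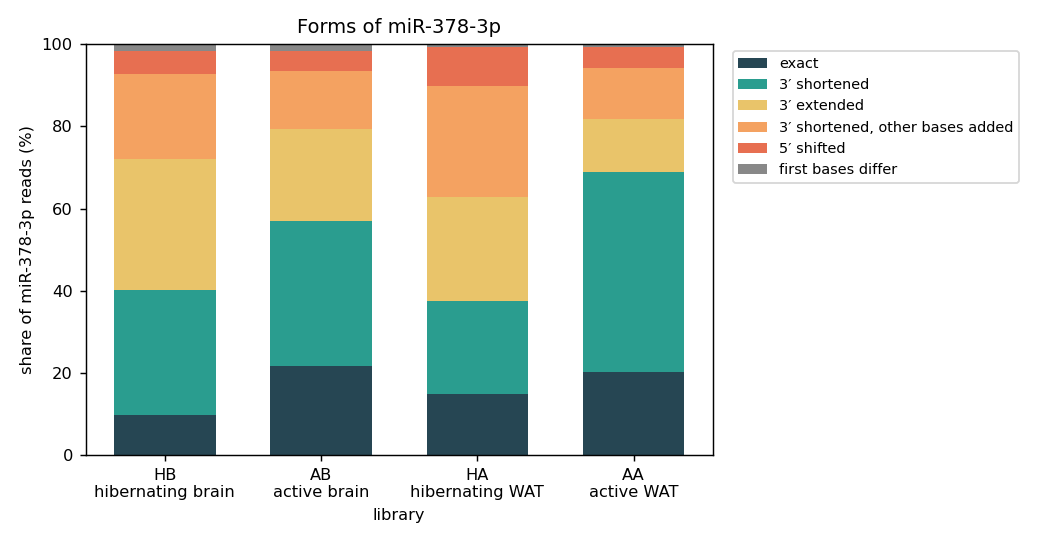
Stacked bars of the share (%) of miR-378-3p reads in each class of form, for the 4 libraries. The exact and 3′ shortened forms together fill more of the bar in AB and AA than in HB and HA, and the classes with added bases fill less.

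Bases that are not in the listed sequence stood at the 3′ end of 57.0% of the reads in HB against 40.5% in AB, and 60.7% in HA against 28.9% in AA. Without a genome to compare with, a base added to the RNA could not be told from a base that the hairpin encodes. The first added base was mostly adenosine, in 47.3% of all reads in HB against 32.1% in AB, and 43.8% in HA against 21.1% in AA. Uridine followed with 7.96%, 6.86%, 14.4% and 6.24%, and cytidine and guanosine each stayed at or below 2.13%. Adenosine led uridine 5.94 to 1 in HB against 4.69 to 1 in AB, and 3.04 to 1 in HA against 3.39 to 1 in AA, so that the lead was larger in brain than in WAT.

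Ends with 1, 2, 3 or more added bases were each more frequent in the hibernating library of both tissues. A single added base was found in 37.6% of the reads in HB against 31.1% in AB, and 37.4% in HA against 21.5% in AA. The share with 2 added bases was 14.2% in HB against 7.28% in AB, and 12.5% in HA against 5.22% in AA. The share with 3 was 3.56%, 1.09%, 6.93% and 1.31%, and that with 4 or more 1.68%, 1.03%, 3.83% and 0.886%. The relative gap between states was thus widest with 3 added bases in both tissues. The mean number of added bases per read was 0.848 in HB against 0.540 in AB, and 1.01 in HA against 0.401 in AA, and the mean length of a read was 21.97, 21.8, 22.2 and 21.5 nt.

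The RNA integrity numbers stated for the pools were 8.3 for HB, 8.1 for AB, 8.4 for HA and 7.5 for AA, so the WAT library with more shortened forms also had the lower number, and the part of RNA quality in the result was not tested.

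The point at which the listed sequence ended also differed. It reached base 22 in 45.8% of the reads in HB against 48.9% in AB, and 48.4% in HA against 37.4% in AA. It stopped at base 21 in 32.4%, 39.3%, 32.1% and 48.1%, and at base 20 in 18.3%, 9.28%, 16.6% and 11.8%. Ends at base 21 were thus more frequent in the active library of each tissue, and ends at base 20 in the hibernating one. Forms that start at base 1 and end before base 18 could not be seen, since no tag was shorter than 18 nt.

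The 3′ end of the read was also set beside the primer that the study used for this miRNA. Whether the end affects that assay was not tested. The study's stem-loop primer for reverse transcription pairs with the last bases of the listed sequence, read as gccttct on the primer. Reads whose last bases were its 7 partners made up 10.6% of the forms in HB against 23.1% in AB, and 15.8% in HA against 21.4% in AA. Reads that held these bases anywhere made up 45.8%, 48.9%, 48.4% and 37.4%, so the order of the states in WAT turned between both ways of counting.

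In WAT every named form, a form with 1% or more of the reads in any library, was lower in HA than in AA, but over a wide range of sizes. The 15 named forms held 80.7% to 92.0% of the reads of a library, and their WAT log2 ratios, scaled by TMM over all forms, ran from -4.93 to -1.46. The 21 nt form had 11064 reads in HA against 347139 in AA and the lowest ratio, -4.93. The exact tag gave -3.90 on this scale, and the 20 nt form, with 6445 against 73838 reads, gave -3.48. Forms with added bases fell less. The 23 nt form with 1 added adenosine had 10523 reads in HA against 66266 in AA and a ratio of -2.62, and the 24 nt form with 2 added adenosines had 1368 against 4792 and a ratio of -1.77. This 24 nt form and the form at -1.46 reached 1% only in HB and HA, so the naming rule favours forms with a small fall.

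In brain the named forms went in different directions. The intervals lay below 0 for 8 of the 15 forms, above 0 for 5 and held 0 for 2. The exact tag had the lowest ratio, -1.96, and the 21 nt form, with 2947 reads in HB against 6097 in AB, gave -1.35. The 20 nt form, with 1455 against 1143 reads, gave 0.05 with an interval that held 0. Every named form whose interval lay above 0 carried added bases. Of all 15 named forms 12 carried them, however, and not all of those lay above 0. Some of the forms above 0 reached 1% only in hibernating libraries. The form with 2 adenosines after base 22 held 2.20% in HB and 1.72% in HA, against 0.689% in AB and 0.540% in AA. The naming rule thus favours forms that are high in hibernation, and the count above 0 depends in part on it. Under the other scalings of the forms tried, 7 or 8 intervals lay below 0 and 5 to 7 above, and in WAT all 15 stayed below.

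The 21 nt form that stops at base 20 and carries 1 adenosine was higher in HB, with 895 reads against 588 in AB and a ratio of 0.31. The 24 nt form with adenosine and uridine added had 992 against 647 reads and a ratio of 0.32. The 24 nt form with 2 adenosines added had 331 against 146 reads and a ratio of 0.88. The same forms were lower in HA than in AA, at -2.33, -2.87 and -1.77. Forms with 1 added uridine went both ways: the 23 nt form with uridine after base 22 had 223 reads in HB against 559 in AB and a ratio of -1.62, and the 21 nt form with uridine after base 20 had 146 against 68 and a ratio of 0.80.

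**Figure D3:**
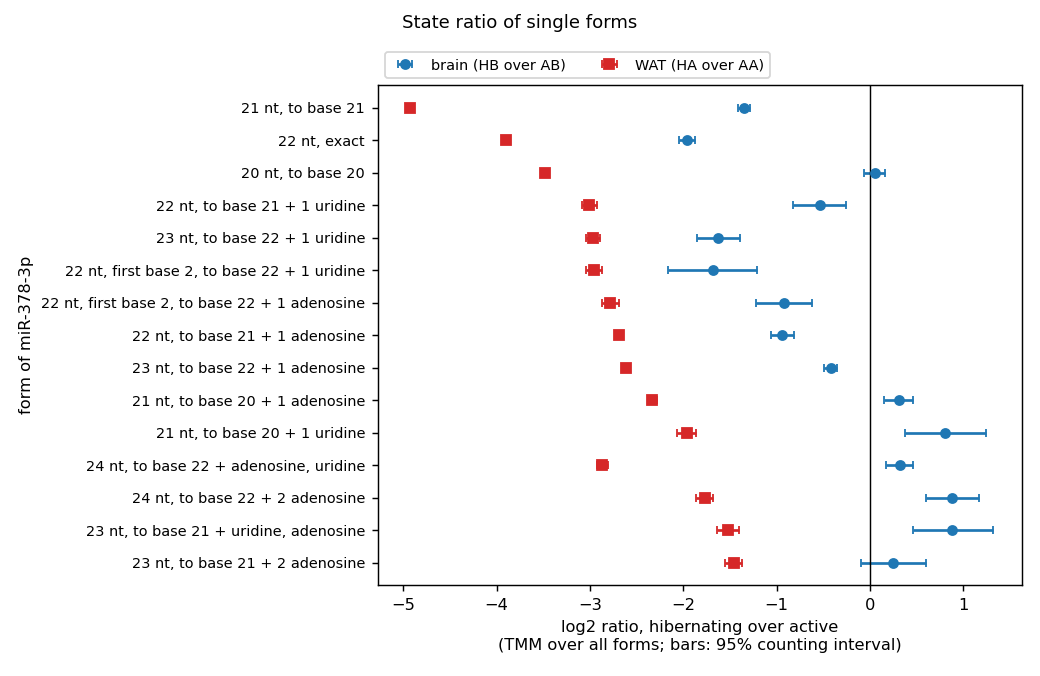
Log2 ratio of hibernating over active for each of the 15 named forms, in brain (circles) and WAT (squares), with 95% counting intervals and forms ordered by the number of added bases. All 15 WAT ratios lie at or below -1.46, whereas 5 brain intervals lie above 0, all of them of forms with added bases. Of the 15 named forms, 12 carry added bases. The naming rule favours forms that are high in hibernation.

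Summed by kind of end, the reads without and with added bases separated in both tissues. Reads of shortened forms had a log2 ratio of -0.998 in brain and -4.54 in WAT. Reads with any added base had -0.30 and -2.38, and the brain value moved to 0.01, with an interval that held 0, when TMM over the exact tags was used. From 1 to 3 added bases the ratio rose, from -0.52 with 1 base to 0.17 with 2 and 0.91 with 3 in brain, and from -2.65 to -2.18 and -1.04 in WAT. With 4 or more it was lower again, at -0.09 (-0.36 to 0.18) in brain and -1.33 in WAT.

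Forms that start at a base other than 1, and so carry another seed, held 5.56% of the reads in HB against 5.10% in AB, and 9.61% in HA against 5.11% in AA. HA stood above the other 3, which lay close together. Most of them started at base 2, with 5.18%, 4.82%, 9.07% and 4.73% of all reads, and starts before base 1 held 0.0991% to 0.206%. The summed log2 ratio of all these forms was -0.67 in brain and -2.53 in WAT. Their share was 0.457 points higher in HB than in AB, where 53.5% of the listed miRNAs with 100 or more reads of all forms had a higher share, and 4.50 points higher in HA than in AA, where 62.4% had one.

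The base that followed base 22 differed with the start of the read. Among reads from base 1 that went past base 22, the next base was adenosine in 92.5% in HB against 84.1% in AB, and 82.0% in HA against 83.4% in AA. Among reads from base 2 it was adenosine in 67.7%, 57.2%, 36.1% and 40.8%, and uridine in 30.4%, 40.0%, 54.4% and 51.3%. In all 4 libraries uridine was thus more frequent after reads from base 2, and in both WAT libraries it led. The named form from base 2 with uridine had 53 reads in HB against 138 in AB, and 1195 in HA against 9508 in AA, and that with adenosine 152, 234, 1129 and 7979. The form with uridine was thus the rarer in both brain libraries and the commoner in both WAT libraries. Reads from base 2 carried an added base more often than the whole, in 69.8%, 70.9%, 86.7% and 70.1%.

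The shift towards added bases was then set beside that of the other listed miRNAs with 100 or more reads of all forms in both libraries of a tissue. In WAT the share with added bases of miR-378-3p was 31.8 percentage points higher in HA than in AA, the largest rise of 93 miRNAs. A higher share in HA was common there, with 80.6% of the 93 and a median of 6.33 points. In brain its share was 16.5 points higher in HB than in AB, the third largest rise of 101 miRNAs, where 48.5% had a higher share and the median was -0.378 points. Of 78 miRNAs measured in both tissues, 34 had a higher share in hibernation in both, or 43.6%.

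The other shares moved as follows. The share with adenosine first added rose by 15.2 points in brain, the second largest rise, where 72.3% of the miRNAs rose, and by 22.6 points in WAT, the third largest, where 84.9% did. The shortened share fell by 25.8 points in WAT, more than in any other of the 93 miRNAs, of which 55.9% had a lower share in HA. It fell by 4.64 points in brain, where 23.8% had a lower share. The exact share fell by 12.1 points in brain, rank 10 of 101 with 52.5% lower, and fell by 5.48 points in WAT, rank 28 of 93 with 69.9% lower. The exact share in WAT therefore moved less, among the miRNAs, than the shares with added or missing bases.

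**Figure D4:**
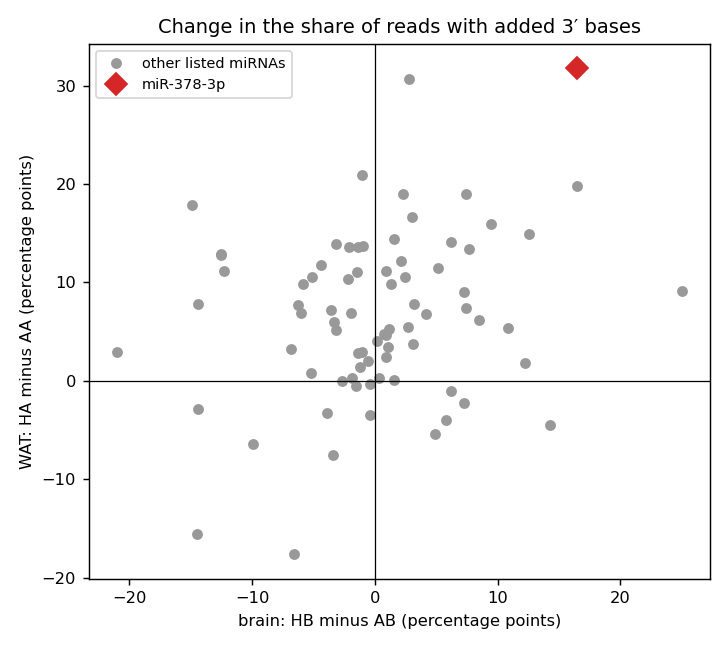
Change in the share of reads with added 3′ bases (hibernating minus active, percentage points) in brain on the horizontal axis and in WAT on the vertical axis, 1 point for each of 78 listed miRNAs. miR-378-3p (diamond) lies at 16.5 in brain and 31.8 in WAT, the highest point on the WAT axis.

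Tags with guanosine instead of adenosine at base 16, the change A16G with positions counted from 1 at the 5′ end of the listed sequence, were outside the counting rule, since base 16 lies among bases 3 to 17. They were examined after their values were seen. The commonest such tag is shown with base 16 in capitals.
23 nt, A16G, with 1 adenosine added: actggacttggagtcGgaaggca

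This tag had 5345 reads in HB against 3613 in AB, and 1484 in HA against 2639 in AA. All tags with A16G had 11212, 7628, 4620 and 8250 reads, or 922, 762, 400.3 and 721 RPM. The levels of these tags thus lay within a narrow range while those of the forms with adenosine at base 16 did not. Of the reads with either base, A16G made up 42.7% in HB against 26.5% in AB, and 5.49% in HA against 0.921% in AA.

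Among all substitutions at bases 3 to 17 of 35 miRNAs with 1000 or more reads in every library, the median share was 0.0450% to 0.0520%. A16G had the highest share of all 1566 in HB, and ranks 4, 4 and 23 in AB, HA and AA. Its log2 ratio of hibernating over active was 0.26 (0.21 to 0.30) in brain and -0.80 (-0.85 to -0.75) in WAT, which differs in direction between the tissues and was not tested. Counting these tags with the forms took the brain ratio of all forms to -0.43 and the WAT ratio to -3.38. Whether the base is encoded by another gene copy or changed in the RNA was not tested.

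The ends of the A16G tags differed from those of the other forms. Added bases stood on 90.7% of them in HB against 80.7% in AB, and 78.1% in HA against 69.4% in AA, above the 28.9% to 60.7% of the forms with adenosine. The share that was exact apart from base 16, with 22 nt, was 5.18%, 12.4%, 14.8% and 17.8%, and the share that ended at base 21 without added bases was 1.44%, 2.96%, 2.77% and 6.93%.

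**Figure D5:**
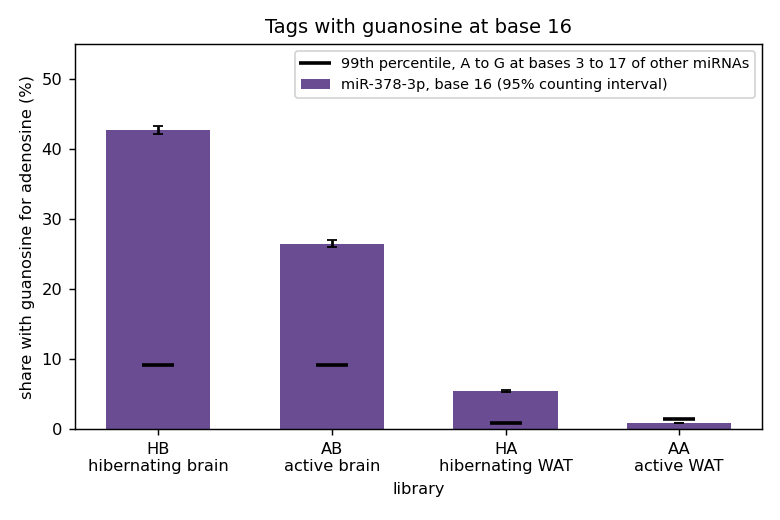
Share (%) of miR-378-3p reads with guanosine in place of adenosine at base 16 in each of the 4 libraries (bars, with 95% counting intervals), and the 99th percentile of adenosine to guanosine changes at bases 3 to 17 of the other miRNAs (black marks). The share falls from 42.7% in HB to 0.921% in AA and lies above the mark in HB, AB and HA.

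Tags of the opposite strand of the hairpin were sought as tags with at most 2 mismatches to the reverse complement of bases 3 to 17. The largest group of them is shown by its commonest tag, with the matched stretch in capitals.
Opposite-arm tag: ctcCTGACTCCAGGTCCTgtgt

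The 43 tags of this group had 2 reads in HB against 3 in AB, and 59 in HA against 314 in AA. The brain reads lie at or under 3, the number a count of 0 allows, so no ratio is given there. In WAT the log2 ratio was -2.38 (-2.80 to -1.97), lower in HA as for miR-378-3p itself. There were 1347 reads of the 3p forms for each opposite-arm read in HA and 2827 in AA, so both WAT libraries held almost only the 3p strand.

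Since miR-378 is also made in skeletal muscle and brown fat, the miRNAs known from those and other cells were read beside it. The muscle miRNAs miR-1-3p, miR-206-3p and miR-133-3p together had 23683 exact reads in HB against 16059 in AB, and 200948 in HA against 208761 in AA. Their sum was close between the WAT libraries, with a log2 ratio of 0.28 after TMM but slightly fewer RPM in HA, 17409 against 18253, whereas miR-378-3p gave -3.60. miR-1-3p held most of this sum, with 196202 reads in HA and 202291 in AA. For every 100 muscle reads there were 5.86 reads of exact miR-378-3p in HA and 86.3 in AA. miR-133-3p, however, had 84 reads in HA against 331 in AA and was called lower at -1.64.

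The 3 miRNAs of the brown fat cluster together had 544 reads in HA against 1252 in AA, a log2 ratio of -0.87, and 1 of the 3 was called lower, miR-193-3p at -2.02, where 28.9% of all listed miRNAs tested in WAT were called lower. In brain these 3 had 25 reads in HB and 15 in AB, and miR-365-5p was at 0 in HB. In WAT miR-365-3p was at -0.52 and miR-365-5p at 0.27. The 3 miRNAs of stroma and vessels had 156818 against 459789 reads and a ratio of -1.22, and miR-199-3p, which holds most of these reads, was the 1 called lower. Beside it, miR-199-5p was at -0.82 and miR-145-3p went the other way, at 0.67. The 4 blood cell miRNAs had 2922 against 3060 reads and a ratio of 0.27, with none called lower. They went both ways, with miR-142-5p at 0.43, miR-486-5p at 0.36, miR-142-3p at -0.70 and miR-486-3p at -0.94. The 3 miRNAs of adipocyte differentiation had 11990 against 14496 reads and a ratio of 0.06. Of these, miR-130-3p was the 1 called lower, at -1.01, beside miR-22-3p at 0.27 and miR-148-3p at 0.08. The part of these cells in the WAT difference of miR-378-3p was not tested.

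In brain the 6 neuronal miRNAs had 491423 reads in HB and 530381 in AB, a log2 ratio of the sum of -0.10, and in WAT 1593 and 2537, with miR-124-5p at 0 in both WAT libraries. The neuronal miRNAs were thus far higher in the libraries of the brain. miR-124a-3p held most of their brain reads. The single members went both ways between the brain libraries, from miR-124b-3p at -0.67 to miR-129-3p at 1.25. The muscle sum differed by 0.57 between the brain libraries, upwards in HB. miR-1-3p, at 0.66, held most of its reads. The other muscle miRNAs were lower in HB, as exact miR-378-3p was: miR-206-3p at -0.24, and miR-133-3p at -1.16 on 4 against 9 reads. In brain 2 of the 4 blood cell miRNAs were called lower, miR-486-3p at -2.10 and miR-486-5p at -1.12. There 17.6% of the listed miRNAs tested were called lower, and miR-142-5p went the other way, at 1.21.

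The listed miRNAs whose pattern over the 4 libraries was most like that of miR-378-3p were found by the root mean square difference of centred log2 levels, among 129 with 100 or more reads in all. miR-574a-5p was nearest at 0.703, with 4, 31, 27 and 338 reads in HB, AB, HA and AA. miR-133-3p followed at 0.771 with 4, 9, 84 and 331 reads, and miR-199-3p, known from fibroblasts and vessel walls, at 1.10 with 6372, 8024, 156158 and 458628. The next were a bat-specific miRNA, tgatcagccgttgcctctct, and miR-1468-5p, both at 1.12. The bat-specific one had 6, 7, 19 and 89 reads, and miR-1468-5p had 22, 19, 141 and 408. The brain log2 ratio of miR-1468-5p was 0.22, not downwards in HB as that of miR-378-3p was. The median over the 129 was 2.72. The nearest pair rests on 4 reads in HB each.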

How the data were processed

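The authors sequenced small RNA of 4 pooled libraries, trimmed adapters, filtered out poor reads and those shorter than 18 nt, and deposited the raw count of each distinct clean tag. The depth was 10007650 to 12159756 clean reads. Groups came from the sample labels, which call the libraries AB and AA aroused. The study's text describes these bats as active. The members, lists and thresholds were chosen with earlier results of these data known.

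Listed sequences were looked up among the tags. A form contained bases 3 to 17. miRNAs that share these bases were counted once, which left 177 distinct cores for all forms. Exact-tag ratios used TMM factors (edgeR 4.0.16, R 4.3.3) from the exact counts of the pair of libraries, and ratios of forms by TMM over the counts of all forms. DESeq2 1.42.0 size factors, clean reads and other counting rules were alternatives. Ratios needed 10 reads in the pair, and intervals were exact conditional binomial (Clopper-Pearson, SciPy 1.17.1). With 1 library per condition no p-value was computed, and no count model was fitted. Likeness of patterns used CPM with a pseudocount of 0.5 reads. Forms with 1% or more of the reads in any library were named, with the marker lists and the 5 nearest patterns. Reads carried no molecular identifiers, so intervals and floors cover counting error only. Counting and ratios were checked on simulated tags and counts. The genome was not used here.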

Additional observations from a re-analysis of the deposited data

Results flagged for a closer look

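The 5 named forms of miR-378-3p and the tags with guanosine at base 16 were picked out because their log2 ratio of hibernating over active pointed upwards in brain and downwards in WAT, each with a counting interval that did not include 0. The difference between the tissues was not tested for any of them, since each condition has 1 library. The form that stops at base 20 with 1 added adenosine had 0.31 in brain and -2.33 in WAT. The form with adenosine and uridine after base 22 had 0.32 and -2.87, and that with 2 adenosines after base 22 had 0.88 and -1.77. The form that stops at base 20 with 1 added uridine had 0.80 (146 against 68 reads in brain) and -1.97. The form that stops at base 21 with uridine and adenosine added had 0.88 (152 against 67 reads in brain) and -1.52. This form, that with uridine after base 20 and that with 2 adenosines after base 22 reached 1% only in hibernating libraries. The naming rule thus favoured them for being high in hibernation, and their upward brain ratios depend in part on it. The tags with guanosine at base 16 had 0.26 and -0.80.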

How the results depend on the processing

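No exact-tag or all-form log2 ratio given in this section reversed in direction under the alternatives. The order of the exact share in HA and AA did reverse under 1 of them. The brain ratio of reads with any added base moved from -0.30 to 0.01, with an interval that held 0, under TMM over exact tags. The exact-tag log2 ratios are given in the order HB to AB, HA to AA, AA to AB and HA to HB. They were -1.95, -3.95, 5.09 and 3.09 with clean reads, -1.75, -3.28, 5.29 and 3.76 with the exact reads of all listed miRNAs, and -1.52, -2.82, 5.27 and 3.08 with TMM over conserved miRNAs. With DESeq2 size factors the last 3 were -3.35, 5.001 and 3.02. Counting tags that begin with the first 18 nt gave -0.50, -3.22, 5.30 and 2.53, and tags with bases 2 to 17 gave -0.49, -3.15, 5.29 and 2.57, so the brain state ratio fell under 1 in size with either wider rule.

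For all forms, in the order brain and WAT, the state ratios were -0.49 and -3.15 with TMM over exact tags, -0.72 and -2.88 with the reads of all forms, -0.69 and -3.25 with DESeq2, -0.76 and -3.26 with TMM over conserved miRNAs, and -1.26 and -4.30 for tags that end on listed bases. Clean reads gave -3.49 and tags from base 1 gave -3.51 in WAT. Including the tags with guanosine at base 16, chosen after seeing the data, gave -0.43 and -3.38.

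The exact share in HB, AB, HA and AA was 10.3%, 23.002%, 16.4% and 21.4% of tags from base 1. Of tags that end on listed bases, also chosen after seeing the data, it was 22.6%, 36.7%, 37.7% and 28.6%, so HA then lay above AA. Listed miRNAs with a lower exact share in hibernation numbered 53 of 101 in brain and 65 of 93 in WAT. They numbered 32 and 34 when 1000 reads were required. Those at least 1 log2 unit apart numbered 62 of 153 in brain and 70 of 142 in WAT, and 32 and 38 when 100 reads were required. Fewer miRNAs meet a higher requirement, and their number is not given here, so the lower counts do not show a change in share. TMM over exact tags moved the ratios by 0.29 in brain and 0.35 in WAT against clean reads. Both tissues of a state came from the same bats. No paired analysis was possible because each condition has 1 library and only 1 replicate number is shared.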

Other observations

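Other changes within the seed and at the first base of miR-378-3p are given as values, chosen after they were seen. The change A6G, within the seed, made up 2.40% of the reads with either base in HB against 2.12% in AB, and 0.517% in HA against 0.249% in AA. A guanosine in place of the first base stood on 1.70%, 1.41%, 0.429% and 0.537% of the reads. Both were higher in the brain libraries than in the WAT libraries. miR-100-5p, another listed miRNA that begins with adenosine, had a first guanosine in 0.971%, 0.780%, 0.237% and 0.166% of its reads. The other 8 miRNAs compared that begin with adenosine had 0.0270% to 0.167% in any library.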
